A study of Mus musculus with 24 samples.

Results

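The transcripts described here are long noncoding RNAs (lncRNAs) that the study listed as specific to mouse heart. The list held 104 probes, and the 102 left after Nrap and Gm5532 were set aside are called the heart lncRNAs below. They were 102 of the 60804 transcript probes on the array. The list was made of probes that were above background on every heart array, not so in any other tissue as a group, and at least 5-fold brighter in heart at the significance threshold of the methods. The contrast between heart and the other tissues is therefore given as a description, with no test.

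Total RNA was labeled with Cy3 and hybridized to 24 one-colour arrays, 3 for each of 8 groups. The tissues were brain, heart, kidney, liver and testis of male ICR mice 8 weeks old. The cultured lines were F9, an embryonal carcinoma line derived from a mouse teratocarcinoma, and GC-1 and GC-2, lines immortalized from mouse spermatogonia and spermatocytes. No group carried a gene alteration or treatment named in the labels. Each line is a single long-cultured line and no line of heart origin was included. The methods call the 3 samples of a group biological replicates, but the labels name no animals or culture dishes, so p-values below measure the spread between these samples.

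An lncRNA is a transcript of more than a short length that is not translated into a protein of known function. Some lie between genes, some on the opposite strand of a gene, and many are noncoding splice forms that share a name, and often exons, with a protein-coding host gene. Heart muscle is known for a limited set of highly expressed genes of the sarcomere, the contractile unit, and their promoters often carry sites for the factors MEF2, GATA4, SRF (which binds the CArG box) and TEAD (which binds the M-CAT element). Heart tissue also holds fibroblasts, endothelial cells and smooth muscle, and with bulk RNA fewer cells of a type and less RNA per cell cannot be told apart.

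The level of a probe is given as the log2 of its processed intensity minus the log2 of the 75th percentile of that array, so that 0 is the 75th percentile. A probe was detected in a group when its signal was flagged as well above background on each of the 3 arrays. The array's 75th percentile ranged from an intensity of 30.7 in liver to 384 in testis, and the number of probes above background on an array from 18257 in liver to 37393 in testis. Replicate 1 of all groups shared a slide, replicates 2 and 3 of heart and the lines shared another, and those of the other tissues were on a slide of their own. Liver replicate 1 stood apart, with its dimmest probe above background at an intensity of 25.3, against at most 16.6 on the other arrays. In GC-2 replicate 1, 122 probes were more than 8-fold above the mean of the other GC-2 arrays, against 0 to 24 on each of the other arrays. The cell type of the heart samples could not be checked from markers, since of 15 heart muscle genes 3 had an identified probe and all 3 are themselves heart lncRNAs (Myl3, Tnni3k and Myoz2).

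The heart lncRNAs were of mixed origin. By name, 26 carried the symbol of a protein-coding host gene or, for Tnxa, of a pseudogene of one: 5 of the contractile apparatus and actin cytoskeleton, 8 of membranes and lipid droplets, 5 of secreted, matrix or protease-inhibitor proteins and 8 of regulators and enzymes. A further 3 were antisense or pseudogene transcripts with a name of their own (Airn, Plet1os and Olfr1077-ps1). Another 30 were predicted or uncharacterized genes (Gm and Rik names), 34 were cDNA clones and 9 were assembled transcripts or matches to human lincRNAs. The 102 probes bore 100 different symbols. RefSeq held a gene for 50 of them, of which 25 were protein-coding, 20 lncRNA, 3 pseudogenes and 2 transcribed pseudogenes.

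To show what lies before genes on which the results below turn, 7 promoters were taken from RefSeq (GRCm38.p6), each from 250 bases before the start to 50 after it, on the strand of the gene. Gm19277, Gm14492 and Plet1os were among the brightest heart lncRNAs, and Myoz2 and Myl3 name sarcomere proteins. Atf3 was also detected in all 3 lines, and Airn in GC-1 alone of them. Capitals mark matches on either strand to TATAAA (the TATA box), AGATAA (bound by GATA factors), CATTCC (the M-CAT element), the MEF2 site or the CArG box.
Gm19277 at chr15:85156083-85156382, minus strand: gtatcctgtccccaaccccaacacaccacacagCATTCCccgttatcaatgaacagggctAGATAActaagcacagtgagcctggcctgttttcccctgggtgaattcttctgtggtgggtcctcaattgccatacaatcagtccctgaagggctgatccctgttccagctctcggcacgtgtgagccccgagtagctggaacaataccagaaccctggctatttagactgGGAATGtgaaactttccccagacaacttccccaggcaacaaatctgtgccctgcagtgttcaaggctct
Gm14492, listed by RefSeq as Prr33, at chr7:142506722-142507021, minus strand: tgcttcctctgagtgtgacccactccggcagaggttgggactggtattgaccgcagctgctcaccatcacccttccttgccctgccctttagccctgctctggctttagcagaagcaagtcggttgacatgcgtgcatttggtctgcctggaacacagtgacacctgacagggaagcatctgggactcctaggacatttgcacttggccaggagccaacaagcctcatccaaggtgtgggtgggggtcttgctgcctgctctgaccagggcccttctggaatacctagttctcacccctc
Plet1os at chr9:50504756-50505055, minus strand: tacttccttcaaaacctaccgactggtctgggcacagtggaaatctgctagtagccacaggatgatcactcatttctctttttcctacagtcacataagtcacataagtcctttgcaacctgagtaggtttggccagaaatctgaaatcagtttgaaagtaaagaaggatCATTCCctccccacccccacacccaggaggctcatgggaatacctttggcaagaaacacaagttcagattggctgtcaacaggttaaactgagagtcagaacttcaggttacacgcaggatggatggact
Myoz2 at chr3:123034938-123035237, minus strand: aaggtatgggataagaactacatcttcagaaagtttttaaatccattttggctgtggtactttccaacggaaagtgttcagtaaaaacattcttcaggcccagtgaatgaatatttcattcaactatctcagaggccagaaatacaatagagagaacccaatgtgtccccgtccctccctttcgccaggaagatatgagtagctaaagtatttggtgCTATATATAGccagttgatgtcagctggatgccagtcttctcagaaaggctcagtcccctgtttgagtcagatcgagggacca
Myl3 at chr9:110763428-110763727, plus strand: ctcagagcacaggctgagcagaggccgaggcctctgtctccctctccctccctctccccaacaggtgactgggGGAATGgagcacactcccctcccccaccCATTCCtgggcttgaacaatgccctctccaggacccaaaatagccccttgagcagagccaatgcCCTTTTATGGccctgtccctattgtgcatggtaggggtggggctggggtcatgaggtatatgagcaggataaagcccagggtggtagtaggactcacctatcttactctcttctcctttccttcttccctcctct
Atf3 at chr1:191183284-191183583, minus strand: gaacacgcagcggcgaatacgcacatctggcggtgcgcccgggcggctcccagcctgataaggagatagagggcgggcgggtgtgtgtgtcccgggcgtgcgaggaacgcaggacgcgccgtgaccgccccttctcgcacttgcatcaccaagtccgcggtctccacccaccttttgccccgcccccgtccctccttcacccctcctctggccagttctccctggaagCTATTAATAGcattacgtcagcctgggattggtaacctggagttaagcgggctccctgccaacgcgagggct
Airn at chr17:12741061-12741360, plus strand: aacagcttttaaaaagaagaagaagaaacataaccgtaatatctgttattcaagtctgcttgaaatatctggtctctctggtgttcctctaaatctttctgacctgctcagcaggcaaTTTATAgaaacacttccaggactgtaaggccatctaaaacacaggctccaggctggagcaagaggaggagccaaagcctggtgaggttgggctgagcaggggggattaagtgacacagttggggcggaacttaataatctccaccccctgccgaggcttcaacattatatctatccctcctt

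In these windows with the first base of the gene at 1, Myoz2 had a MEF2 match at position -33 and Atf3 one at -22. Myl3 had a CArG box at -85 and M-CAT matches at -177 and -149. Gm19277 had a GATA match at -190 and M-CAT matches at -217 and -19, Plet1os an M-CAT match at -80 and Airn a TATA box at -132. None of the 5 motifs was found in the window of Gm14492. A promoter was held for 37 of the heart lncRNA genes: 2 of them (5.41%) had a MEF2 match, against 0.557% of the 32841 RefSeq promoters, 2 (5.41%) a CArG box, against 1.63%, and 8 (21.6%) an M-CAT match, against 14.7%. GATA matches stood in 5 (13.5% against 11.2%) and TATA boxes in 3 (8.11% against 13.6%). The E-box (CANNTG), not in capitals above, was in 27 (73.0% against 72.3%). A MEF2 site or CArG box can contain TATAAA, and the other motifs were counted separately. The MEF2 matches were the stretches CTATATATAG (Myoz2) and CTATTAATAG (Atf3). The MEF2 and CArG shares rest on 2 genes each, and the letters a pattern allows set how many windows match. These counts are descriptions of letters in a window. A noncoding transcript of a host gene can start elsewhere than the RefSeq start shown, and the heart lncRNA probes' own sequences are not shown because none of the files used here holds them.

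All 102 heart lncRNAs were on the array and above background on each heart array, as the rule required. Their mean heart level ranged from -1.74 to 4.53 with a median of -0.03. The SD over the 3 heart arrays had a median of 0.33, against 0.30 over the 24179 probes detected in heart. In 18 of 102 (17.6%) the heart arrays lay more than 2-fold apart, a share near that of all probes detected in heart (18.1%). The lowest of the 3 heart values came from replicate 1 for 39 of the 102, from replicate 2 for 43 and from replicate 3 for 20. As shares these were 38.2%, 42.2% and 19.6%, against 29.3%, 48.3% and 22.5% of all probes detected in heart. No heart lncRNA spanned more than 4-fold among heart arrays, where 2.02% of all probes detected in heart did.

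**Figure D1:**
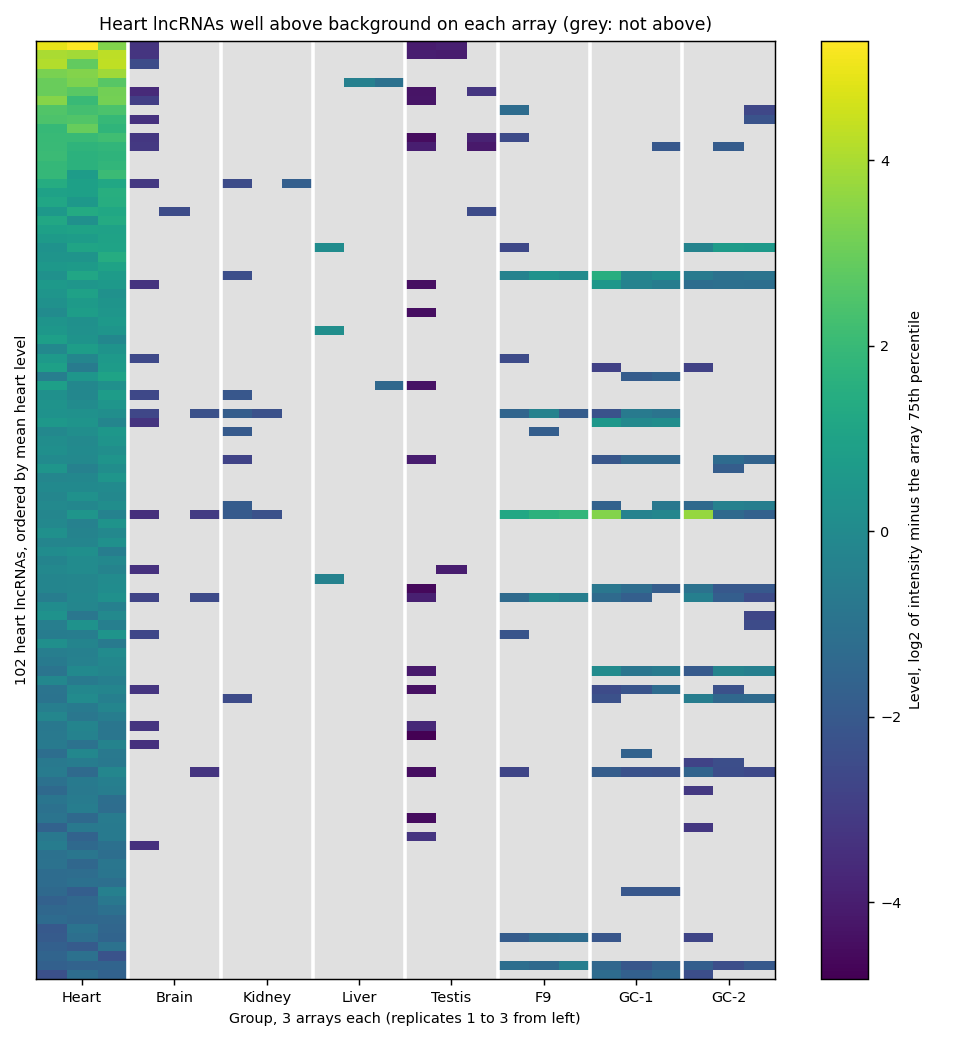
Level of each of the 102 heart lncRNAs (rows, by mean heart level) on each of the 24 arrays (columns, 3 per group), coloured where the probe was well above background and grey where it was not. The heart columns are filled for all 102, the columns of replicate 1 of brain and testis hold 22 and 19 coloured cells, and bands that run through all arrays of a line mark the 17 present in at least 1 line.

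The highest heart signal was that of Gm19277, a predicted gene. Its heart level was 4.90, 5.29 and 3.38 on the 3 arrays (intensities of 3214, 2863 and 662), so replicate 3 lay below the others. Its level was between -5.37 and -3.17 on the 12 arrays of the other tissues, and it was at least 56.3-fold higher in heart than in each of them. Gm19277 was above background on 1 brain array and 2 testis arrays and on no kidney or liver array. Folds called "at least" set the mean of the higher group against the mean, over the arrays of the lower group, of the probe's own signal or the lowest signal above background on that array, whichever was higher.

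C230038L03Rik, another uncharacterized gene, was steadier, at 4.0, 3.91 and 4.30 in heart, and was at least 41.0-fold higher than in each other tissue. Gm14492 had heart levels of 4.11, 2.85 and 4.33 with replicate 2 below the others, and was at least 33.2-fold higher. The clone AK085761 had heart levels of 3.26, 3.42 and 3.84 and was at least 27.7-fold higher. In all of these the heart arrays lay far above every other array, and AK085761 alone of the 4 was above background on no other tissue array.

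Plet1os, a transcript from the strand opposite to Plet1, differed from the other bright heart lncRNAs in liver. Its heart levels were 2.97, 3.29 and 2.67. Its liver levels were -1.17, -0.42 and -1.05, with 2 of the 3 liver arrays above background, while it was above background on no array of brain, kidney or testis. It was at least 13.9-fold higher in heart than in liver.

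Clones made up most of the rest of the 10 brightest. AK085954 lay at 2.97, 2.68 and 3.13 in heart, AK085873 at 3.45, 2.04 and 3.19, AK052878 at 2.53, 2.27 and 2.44 and AK085891 at 2.47, 2.54 and 1.94. Their bounds over each other tissue were 18.6-fold, 18.1-fold, 13.0-fold and 12.2-fold. The last of them was a noncoding transcript of Myoz2, which encodes a Z-disc protein that binds calcineurin. It had heart levels of 1.96, 2.94 and 1.78, was at least 11.4-fold higher than in each other tissue, and was above background on no array outside heart. Brightness also depends on the probe, so these values do not rank the transcripts by abundance.

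**Figure D2:**
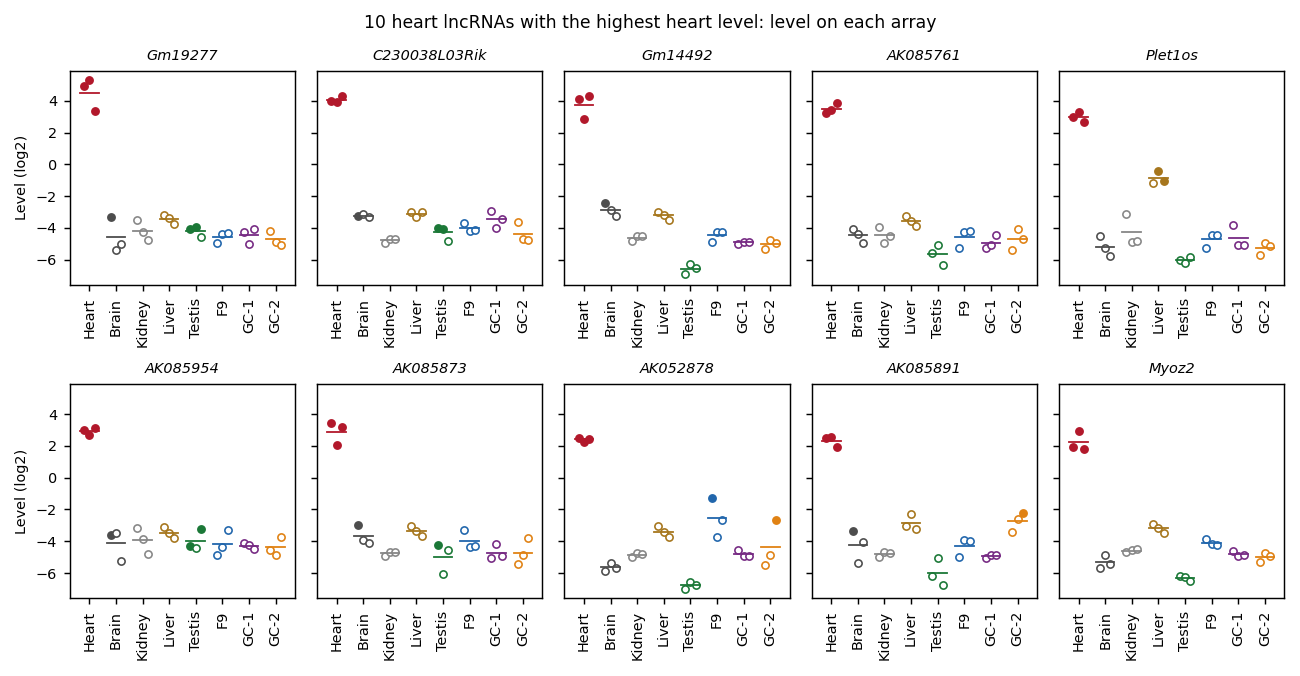
Level (log2, relative to the 75th percentile of the array) of the 10 heart lncRNAs with the highest heart level on the 24 arrays, with a line at each group mean. Filled points are arrays on which the probe was well above background and open points are not. Heart arrays lie between 1.78 and 5.29, and Plet1os in liver is the highest group outside heart.

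Among the host genes of the contractile apparatus and actin cytoskeleton, heart levels ranged from -0.25 to 2.23. The transcript of Myl3, the ventricular essential myosin light chain, lay at -0.01, -0.02 and 0.00, with the smallest SD of any heart lncRNA (0.01, n = 3). Tnni3k, a heart kinase that binds cardiac troponin I, lay at 0.08, -0.17 and -0.40, and Coro6, of the actin-binding coronin family, at 0.21, -0.27 and -0.68. Myl3, Tnni3k and Coro6, like Myoz2, were above background on no array outside heart. Palld, an actin-binding scaffold of stress fibres and Z-discs, lay at 0.33, 1.07 and 1.04 and was the exception, with 1 liver array, 1 F9 array and all GC-2 arrays above background.

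Host genes of membranes and lipid droplets had heart levels between -1.61 and 0.75. Plin4, a coat protein of lipid droplets, lay at 0.40, 0.41 and 1.43, and Lclat1, an acyltransferase that remodels cardiolipin, at 0.28, 0.68 and 0.42. These 2, with Ahnak (mean -0.10 ± 0.16, SD, n = 3), Ehd4 (-0.89 ± 0.26) and the adhesion receptor Gpr133 (-1.61 ± 0.60), were above background on no array outside heart. Plekhg1 (0.33 ± 0.52) was above background on 1 liver and 1 testis array. Cav1, the scaffold of caveolae, was detected in both GC lines.

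Host genes of secreted, matrix and protease-inhibitor proteins had heart levels between -1.19 and 0.57, and those of regulators and enzymes between -1.02 and 0.34. In the first set Tnxa, a tenascin pseudogene, had heart levels of -1.37, -1.79 and -0.42 and was above background on 2 GC-1 arrays. In the second, the transcript of the deacetylase Hdac10 lay at -0.51, 0.48 and 1.03 in heart and was above background on 2 GC-1 arrays. Those of the histone demethylase Kdm1b (-1.02 ± 0.39), the SMC5/6 subunit Nsmce1 (-0.68 ± 0.50), the helicase-related Dhx32 (-0.63 ± 0.30), insulin-degrading enzyme Ide (-0.69 ± 0.10) and dopa decarboxylase Ddc (0.07 ± 0.42) were each above background on 1 or 2 arrays outside heart. Olfr1077-ps1, an olfactory receptor pseudogene, had a heart level of -0.74 ± 0.29 and was above background on none.

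Over all 102, the mean heart level exceeded that of the nearest other tissue by 1.39 to 7.97 on the log2 scale, with a median of 3.20. The nearest tissue was liver for 94, kidney for 7 and brain for 1. Of the 94, however, 89 were above background on no liver array. Of each array's negative control spots, 95% lay below a level that was between -3.36 and -1.87 on the dim liver arrays and between -6.76 and -6.24 on the bright testis arrays. With the scaling used by the study the nearest tissue was brain for 42, liver for 36, kidney for 21 and testis for 3. The median difference was 2.82 on the slide that held replicate 1 of every tissue. With a normexp background correction, which adds an offset of 50 to each intensity, it was 0.72, and over brain, kidney and testis alone it was 4.09. As bounds over each other tissue, 14 were at least 8-fold and 25 at least 4-fold higher in heart, and for 7 of 102 no fold could be stated because the bound was under 1.

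Flags tell which tissue held some signal. Of the 102, 62 were above background on no array of another tissue, 30 on at most 1 array of any of them and 10 on 2 arrays of at least 1. The 10 were Gm19277, C230038L03Rik, AK085954, A930016O22Rik and D830032E09Rik in testis, Plet1os in liver, Gm5860 in kidney, Eif2s2 in brain, and AK037391 and Atf3 in both brain and kidney. Brain had at least 1 such array for 24 heart lncRNAs (23.5%), testis for 21 (20.6%), kidney for 9 (8.82%) and liver for 5 (4.90%). Of all probes, by the stricter count of all 3 arrays, 47.8% were detected in brain, 55.3% in testis, 39.5% in kidney and 26.8% in liver. The part of array brightness in the order of the tissues was not tested. Most flags of heart lncRNAs in other tissues lay on the slide of replicate 1. On it 53 of 408 readings of heart lncRNAs in other tissues (13.0%) were above background, against 18 of 816 (2.21%) on the slide of replicates 2 and 3, while for all probes the shares were 48.2% and 46.4%. Heart replicate 1 was on the former slide, and the part of the slide in this difference was not tested.

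Near the 5-fold threshold of the list, on the scaling of the study, the transcripts of Dhx32, Gm15950 and AK045700 stood just inside at 5.19, 5.27 and 5.27-fold over the nearest tissue. Just outside, 3 probes with the same pattern of flags and no name in the tables used here stood at 4.99, 4.97 and 4.97-fold.

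For 5 of the heart lncRNAs another probe of the same symbol was identified in the study's tables, and all 3 such probes were detected outside heart. Another transcript of 1500017E21Rik (ENSMUST00000129953) was detected in liver, at 3.66 ± 0.90 (SD, n = 3), and on 2 of 3 heart arrays, whereas both transcripts in the list were above background on no array outside heart. A second transcript of Gm5860 (NR_040659) was detected in all 8 groups and reached 11.25 ± 0.15 in F9, against 9.96 ± 0.22 in GC-1 and 6.73 ± 0.28 in GC-2 (SD, n = 3). The listed Gm5860 transcript had means of -4.64, -5.10 and -5.23 in these lines, with no array above background. Another transcript of XLOC_019775 was likewise detected in all 8 groups, while neither of those in the list was detected in a line. The values given for a symbol are therefore those of the listed transcript alone.

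Most heart lncRNAs were not detected in the lines. F9 had 6 of 102 (5.88%) detected, GC-1 had 12 (11.8%) and GC-2 had 11 (10.8%), where all probes gave 36.7%, 40.9% and 40.9%. In at least 1 line 17 (16.7%) were detected, against 46.4% of all probes, 3 in all 3 lines, and 68 were above background on none of the 9 line arrays. The list was chosen for absence from testis and other tissues. Set beside it were therefore the 708 probes of any kind, the heart lncRNAs included, that were detected in heart and in no other tissue. F9 had 8.05% of these, GC-1 had 17.9% and GC-2 had 17.7%, and 25.6% were in at least 1 line. The study's lists for other tissues gave these shares: of 102 kidney-specific lncRNAs F9 held 9.80%, GC-1 10.8% and GC-2 8.82%, and of 595 brain-specific ones 6.89%, 5.88% and 6.55%. Of 48 liver-specific lncRNAs F9 held 0, GC-1 held 2 and GC-2 held 1.

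**Figure D3:**
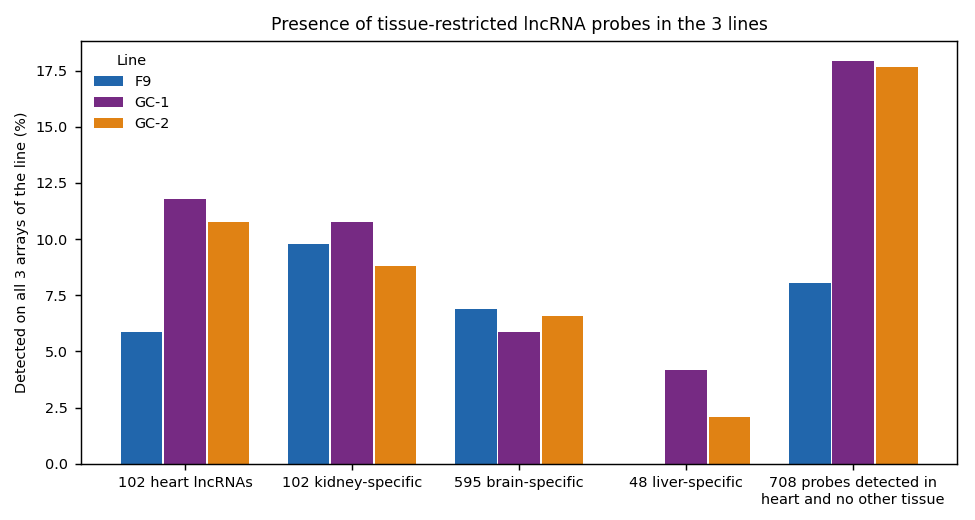
Percentage of each set of probes (x axis) detected on all 3 arrays of F9, GC-1 and GC-2 (bars). The heart lncRNAs reach 5.88%, 11.8% and 10.8%. In each line this is below the share of the 708 probes detected in heart and no other tissue, which include the heart lncRNAs.

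By origin, 8 of the 26 heart lncRNAs with a host symbol (30.8%) were detected in at least 1 line and 9 of the other 76 (11.8%). The host genes of secreted, matrix and protease-inhibitor proteins gave 4 of 5, those of regulators and enzymes 2 of 8, and those of the contractile apparatus and of membranes 1 of 5 and 1 of 8. Of the 30 predicted or uncharacterized genes 5 were detected and of the 3 antisense or pseudogene transcripts 1. Of the 34 clones 3 were detected and of the 9 assembled transcripts 0. The share for host-symbol lncRNAs outside the list is not given here, so the contrast by origin has no measure beside it. The 10 brightest heart lncRNAs were detected in no line, and 8 of them were above background on no line array.

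Atf3, Gm11389 and Gm15950 were detected in all 3 lines. Atf3 encodes a transcription factor that many cells induce under stress. Its transcript lay at -0.19, 0.45 and -0.34 in heart and at 1.25, 1.66 and 1.82 in F9, where each array was above each heart array. In GC-1 it lay at 3.42, -0.33 and -0.18, and in GC-2 at 3.68, -1.36 and -1.67, so in both lines replicate 1 was far above the others. With that spread none of the 3 differences among lines passed the test (adjusted p from 0.45 to 0.844, limma).

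Gm11389 lay at 0.31, 1.18 and 0.72 in heart, -0.34, 0.34 and 0.07 in F9, 1.53, -0.23 and 0.08 in GC-1 and -0.67, -1.02 and -0.91 in GC-2. Gm15950, which RefSeq lists as a pseudogene, lay at -1.73, -1.58 and -1.55 in heart, -1.18, -1.38 and -0.49 in F9, -1.47, -2.10 and -1.63 in GC-1 and -1.80, -2.39 and -2.01 in GC-2. The F9 arrays of Gm15950 lay above those of heart, the GC-1 arrays overlapped them and the GC-2 arrays lay below. Whether probes of pseudogenes, or of noncoding forms of host genes, also bind the related mRNA was not tested.

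**Figure D4:**
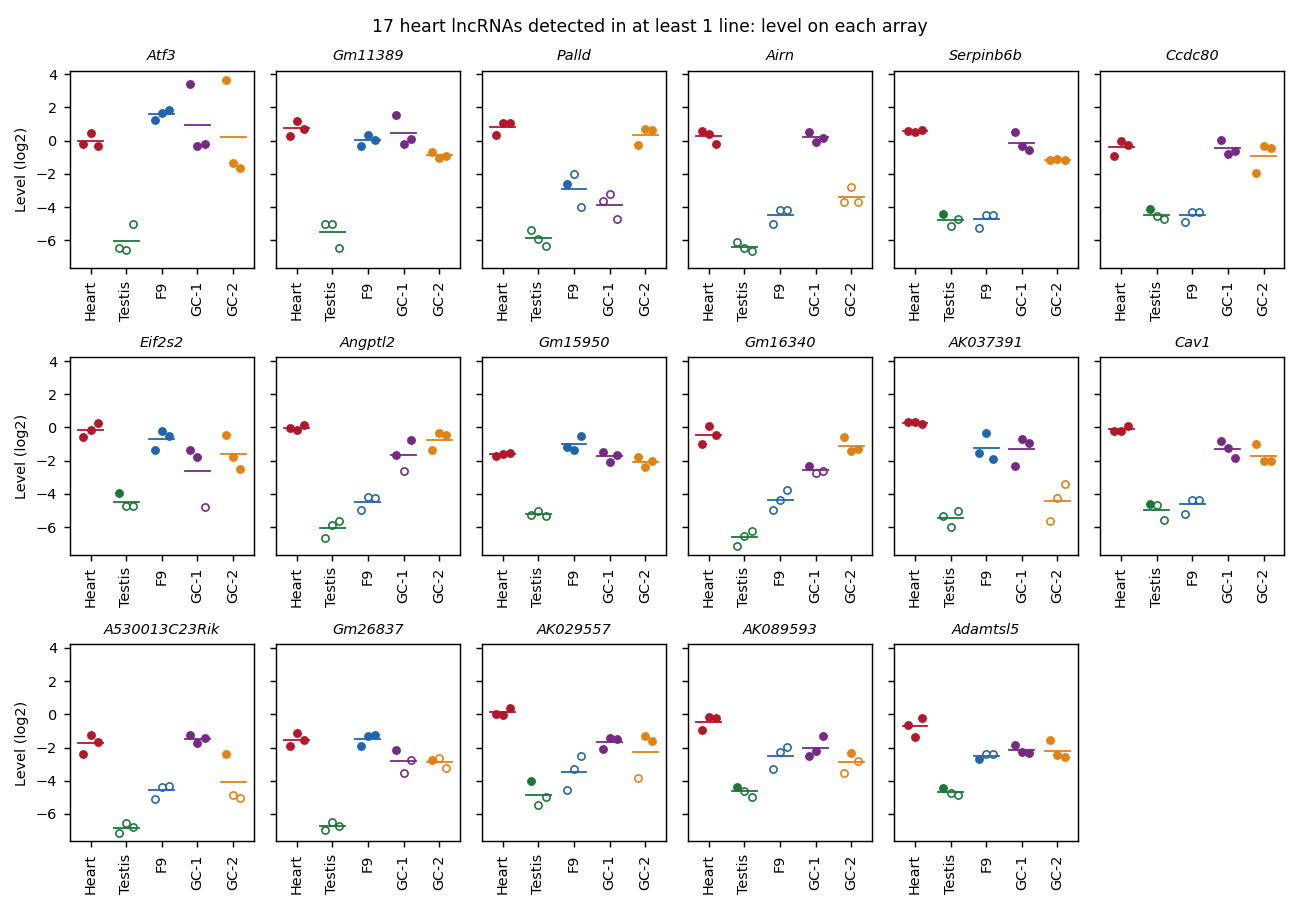
Level (log2, relative to the 75th percentile of the array) of the 17 heart lncRNAs detected in at least 1 line, on the arrays of heart, testis and the lines, with a line at each group mean. Filled points were well above background and open points were not. Atf3 in replicate 1 of GC-1 and GC-2 lies at 3.42 and 3.68, above all its other arrays.

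A group of 4 was detected in both GC lines and not in F9. Serpinb6b, a serpin protease inhibitor, lay at 0.55, -0.33 and -0.59 in GC-1 and at -1.19, -1.12 and -1.18 in GC-2. Cav1 lay at -0.83, -1.22 and -1.86 in GC-1 and at -1.02, -2.02 and -2.04 in GC-2. Ccdc80, a secreted matrix-associated protein, lay at 0.05, -0.83 and -0.62 in GC-1 and at -1.95, -0.32 and -0.46 in GC-2. For these 3 no F9 array was above background. Adamtsl5, of the ADAMTS-like matrix proteins, differed less: it lay at -1.83, -2.28 and -2.31 in GC-1, at -1.55, -2.44 and -2.59 in GC-2 and at -2.69, -2.38 and -2.37 in F9, where 1 array was above background.

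Others were detected in 1 line. The ones in GC-1 were Airn, the antisense noncoding RNA of the imprinted Igf2r locus, A530013C23Rik and the clones AK029557 and AK089593. In GC-2 they were Palld, Angptl2, a secreted angiopoietin-like protein, and Gm16340, listed by RefSeq as a pseudogene of the Ifi203 family. In F9 it was Gm26837. Since detection required all 3 arrays, a transcript listed here for 1 line could be above background on some arrays of another. AK029557 was so on 2 GC-2 arrays (levels of -3.82, -1.29 and -1.61 in GC-2). Angptl2 was so on 2 GC-1 arrays (-1.66, -2.61 and -0.78 in GC-1). AK029557 had a mean of 0.12 ± 0.25 (SD, n = 3) in heart and -1.66 ± 0.38 in GC-1, and AK089593 of -0.44 ± 0.43 and -2.01 ± 0.64. Eif2s2, the beta subunit of translation initiation factor eIF2, was detected in F9 (-1.33, -0.22 and -0.50) and GC-2 (-0.45, -1.80 and -2.52), against -0.55, -0.15 and 0.25 in heart, and the clone AK037391 was detected in F9 and GC-1. In heart the level was the higher for most: the line mean exceeded the heart mean for 3 of the 6 detected in F9 (Atf3, Gm15950 and Gm26837), 2 of the 12 in GC-1 (Atf3 and A530013C23Rik) and 1 of the 11 in GC-2 (Atf3). Since the heart arrays served to choose the list, these differences were not tested.

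The list was chosen without the lines, so differences among the lines could be tested, on the 9 line arrays with limma and adjustment over all 60804 probes. Between F9 and GC-1, 13 of 102 heart lncRNAs (12.7%) passed an adjusted p of 0.05, against 23.5% of all probes. Between F9 and GC-2 it was 15 (14.7% against 23.3%), and between GC-1 and GC-2 it was 6 (5.88% against 9.23%). Many heart lncRNAs were at background in both lines, where a level depends on the background and the 75th percentile of the array and a difference need not reflect a signal. Over all probes the median difference was 0.40 for F9 minus GC-1, 0.52 for F9 minus GC-2 and 0.12 for GC-1 minus GC-2, and over the heart lncRNAs it was 0.29, 0.52 and 0.13. The counts below are therefore limited to those detected in at least 1 of the lines compared. A transcript detected in only 1 of them can enter through the line where it is high, so directions partly follow this filter. The shares of all probes set beside these counts were filtered in the same way.

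Between F9 and GC-1, 6 of the 14 so detected passed, where 43.1% of all 26771 probes detected in either line passed. Of these 5 were higher in GC-1 and 1 in F9, against 21.1% and 22.0% of those probes. Airn was at 0.55, -0.08 and 0.14 in GC-1 and at -5.05, -4.19 and -4.19 in F9, at least 6.14-fold higher in GC-1 (adjusted p = 8.90e-06, limma). Serpinb6b was at least 4.90-fold higher (adjusted p = 8.23e-06), Ccdc80 at least 3.86-fold (0.000125), Cav1 at least 2.16-fold (0.000198) and A530013C23Rik at least 1.93-fold (0.00441) in GC-1. The 5 were above background on all GC-1 arrays and on no F9 array. Gm26837 alone was higher in F9, by 1.30 on the log2 scale (SE 0.37, adjusted p = 0.0287, limma), at -1.90, -1.32 and -1.24 against -2.13, -3.50 and -2.73. Its intensity on GC-1 replicate 2, 9.40, lay under the lowest one above background on that array, 15.1.

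Between F9 and GC-2, 9 of 13 passed, against 41.3% of all 26776 probes detected in either line. Of these 6 were higher in GC-2 and 3 in F9, against 20.4% and 20.9% of those probes. Angptl2 was at -1.37, -0.36 and -0.48 in GC-2 and at -4.97, -4.21 and -4.24 in F9, at least 3.20-fold higher in GC-2 (adjusted p = 0.000305, limma). Ccdc80 (at least 2.84-fold, adjusted p = 0.000275), Gm16340 (at least 2.51-fold, 0.000107), Serpinb6b (at least 2.38-fold, 4.31e-05) and Cav1 (at least 1.65-fold, 0.000454) were also higher in GC-2, with no F9 array above background. Palld was at -0.28, 0.73 and 0.63 in GC-2 and at -2.64, -2.01 and -4.02 in F9, where 1 array was above background, a log2 difference of -3.24 for F9 minus GC-2 (SE 0.56, adjusted p = 0.00217, limma). The size of that difference depends in part on the background in F9. Of the 3 higher in F9, AK037391 was at least 3.34-fold higher (adjusted p = 0.00534), Gm26837 was higher by 1.37 (SE 0.37, adjusted p = 0.0233) and Gm15950 by 1.05 (SE 0.30, adjusted p = 0.0324) on the log2 scale.

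The GC lines differed from each other in 5 of the 16 detected in either, against 17.5% of 26812 probes. Of these 3 were higher in GC-1 and 2 in GC-2, against 9.09% and 8.37% of those probes. Airn was at -3.72, -2.82 and -3.68 in GC-2, above background on no array, and was at least 9.14-fold higher in GC-1 (adjusted p = 0.000129, limma). Palld went the other way: it was at -3.63, -3.23 and -4.74 in GC-1, above background on no array, and was at least 9.34-fold higher in GC-2 (adjusted p = 0.00102, limma). AK037391, at -2.29, -0.71 and -0.91 in GC-1 and -5.62, -4.25 and -3.38 in GC-2, was at least 3.21-fold higher in GC-1 (adjusted p = 0.0127). A530013C23Rik, at -1.25, -1.74 and -1.40 in GC-1 and -2.40, -4.84 and -5.04 in GC-2, was higher in GC-1 by 2.63 (SE 0.61, adjusted p = 0.0240) on the log2 scale. On GC-2 replicates 2 and 3 its intensities were 3.73 and 3.46. The level under which 95% of negative control spots lay was 4.97 and 4.78 on these arrays, so the size of this difference depends on the background. Gm16340, at -2.32, -2.74 and -2.64 in GC-1 and -0.54, -1.40 and -1.31 in GC-2, was lower in GC-1 by a difference of -1.48 (SE 0.35, adjusted p = 0.0274, limma).

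**Figure D5:**
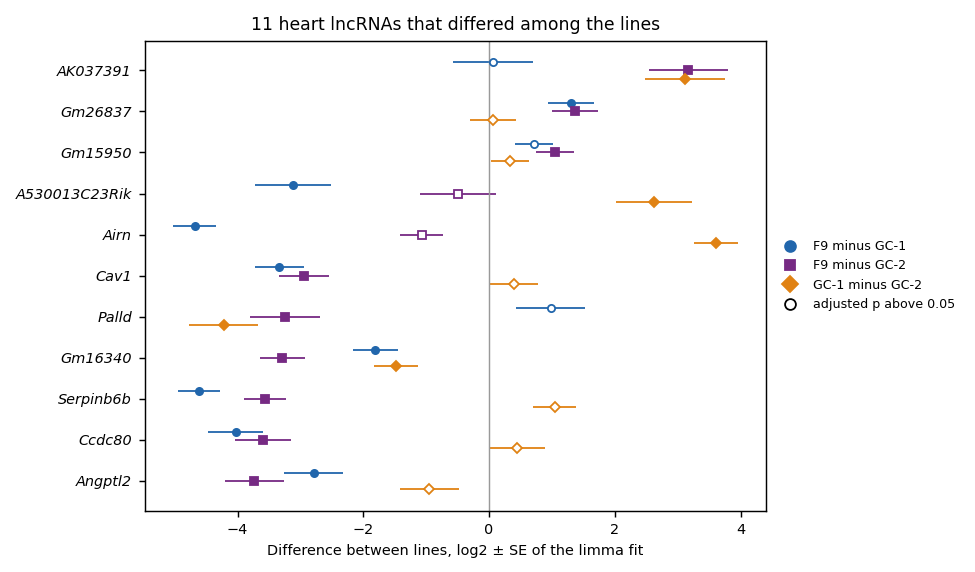
Difference between lines (x axis, log2, with the SE of the limma fit over 9 arrays) for the 11 heart lncRNAs that were detected in a line and passed the test in at least 1 comparison. Filled symbols have an adjusted p of 0.05 or less. Airn is higher in GC-1 than in either other line and Palld higher in GC-2. Where the lower line was at background on some or all arrays the plotted value depends on the background. The text gives a bound for differences that passed where no array of the lower line was above background.

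These were 20 differences in 11 heart lncRNAs. With slide as a block 7 of 14 passed between F9 and GC-1, 9 of 13 between F9 and GC-2 and 5 of 16 between GC-1 and GC-2, where of all probes detected in either line 54.4%, 57.9% and 26.1% passed. Within the slide of replicates 2 and 3, which holds 2 arrays of each line, 8 of 14, 11 of 13 and 8 of 16 passed, against 66.1%, 65.6% and 33.8%. Of the 20, 12 passed under each of the 19 alternatives with a p: both differences of Airn, Serpinb6b, Cav1 and Ccdc80, that of Angptl2, Palld between the GC lines, A530013C23Rik between F9 and GC-1 and Gm16340 between F9 and GC-2. The other 8 missed the threshold in 1 to 8 of the alternatives. The share of all called probes that passed every alternative is not given here, so 12 of 20 has no measure beside it. Among the alternatives, the deposited series table held nearly the same intensities and could change little. With the replicate number as a block 6 of 14, 9 of 13 and 4 of 16 passed, against 49.6%, 49.0% and 21.3% of all probes detected in either line. In that fit F9 minus GC-1 of Gm26837 had an adjusted p of 0.0516 (0.00699 to 0.148 over its alternatives, limma) and GC-1 minus GC-2 of Gm16340 one of 0.0511 (0.0128 to 0.128).

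Without single arrays the adjusted p (limma) of Gm26837 rose to between 0.0714 and 0.103 for F9 minus GC-1, when replicate 2 or 3 of F9 or of GC-1 was left out. For F9 minus GC-2 it was 0.0770 without F9 replicate 2, 0.0835 without F9 replicate 3 and 0.0878 without GC-2 replicate 3. Gm15950 did not pass without F9 replicate 3 (0.120), GC-1 replicate 3 (0.0511), GC-2 replicate 2 (0.110) or GC-2 replicate 3 (0.0793). Between the GC lines AK037391 had 0.0529 and 0.0517 without GC-1 replicate 2 and 3. Gm16340 had 0.102 and 0.0935 without GC-1 replicate 2 and 3, and 0.0698 and 0.0565 without GC-2 replicate 1 and 3. A530013C23Rik had 0.0705, 0.0560 and 0.0751 without GC-1 replicate 1, 2 and 3, and 0.0871 and 0.0835 without GC-2 replicate 2 and 3.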

How the data were processed

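Per the labels and methods, total RNA of 24 samples was labeled with Cy3 and hybridized to a 60-mer mouse lncRNA array (8 arrays per slide). The labels name Trizol and the methods a column kit for the extraction. The authors read the arrays with Feature Extraction 11.5.1.1 and deposited 1 processed intensity per spot (gProcessedSignal, background-subtracted) with flags for a signal well above background. The deposited series table held the same intensities to within a relative difference of 0.000228 and was an alternative. The authors' own normalization used GeneSpring.

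Here log2 was taken of each deposited intensity, less the log2 of the 75th percentile of its array over the 60804 transcript probes, with control spots left out. All 24 arrays passed into the levels, none with imputed values. The number of arrays limits the precision. Differences among lines were fitted with limma 3.58.1 in R 4.3.3 on the 9 line arrays, with Benjamini-Hochberg adjustment over all probes. Tested on simulated data with independent noise on each array, the fit recovered most, not all, of the differences that were set. These were set only in probes above background on all 9 line arrays. The simulation therefore does not cover probes at background in a line or arrays that deviate together, and its count of false calls is not given here. Tables were made with Python 3.11.15, pandas 2.3.3 and numpy 2.4.6. Alternatives were quantile normalization, the authors' scaling (floor of 5, median of probes above background), normexp with an offset of 50 on the median signals, a filter on dim probes, slide and replicate blocks, all 24 arrays in 1 fit, the methods' t-test and leaving out each array. Same-numbered line arrays deviated together (r from 0.125 to 0.543 for each pair of lines, over 19940 probes). The main fit had no term for this, and the replicate number was a block in an alternative only. Replicate 1 of the lines shared a slide, and replicates 2 and 3 another, and the source of the shared deviation was not tested.

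The heart lncRNAs, classes, motifs and marker lists were chosen with earlier results of these data known. Transcripts were named if they were among the 10 with the highest heart level, had a host or antisense symbol, were detected in a line, were called among lines, or lay next to the 5-fold threshold. Marker checks were void, since no list of the 50 marker genes had the required 80% identified. Gene names came from the study's sheet and RefSeq. The array files name another build (mm9) than RefSeq's GRCm38.p6, so positions are given for the RefSeq promoters only. The values of 1 transcript are not reported here.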

Additional observations from a re-analysis of the deposited data

How the results depend on the processing

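With the replicate block, 14, 20 and 7 of the 102 heart lncRNAs passed in F9 minus GC-1, F9 minus GC-2 and GC-1 minus GC-2, against 13, 15 and 6 without it (27.5%, 30.5% and 11.3% of all probes, against 23.5%, 23.3% and 9.23%), and 6, 9 and 4 of those detected in either line, against 6, 9 and 5. The block ended the calls of Gm26837 (F9 minus GC-1) and Gm16340 (GC-1 minus GC-2) and no other of the 20. For F9 minus GC-1 over all 102, 21 passed with the slide block (31.4% of all probes), 56 within the slide of replicates 2 and 3 (62.6%), 6 if 5-fold was also required (7.13%) and 21 by the methods' t-test (30.9%), and 9 to 17 without single arrays. The filter on dim probes, which keeps 17 of the 102, left 8 (50.7% of the probes kept). For F9 minus GC-2, 34 passed with normexp (35.6%), 42 with the slide block (53.4%), 57 within the slide (62.4%), 7 at 5-fold (6.90%) and 6 by the t-test after Benjamini-Hochberg adjustment (13.7%), and 10 to 44 without single arrays, with 44 when F9 replicate 1 was left out (52.0%). For GC-1 minus GC-2, 14 passed within the slide (18.1%) and 2 by the adjusted t-test (5.08%), and 3 to 7 without single arrays, with 3 when GC-1 replicate 2 was left out (6.04%). Among those detected in either line, with the share of all such probes in brackets, the F9 minus GC-1 count was 5 to 7 without single arrays. The F9 minus GC-2 count was 5 by the adjusted t-test (28.0%) and 7 to 10 without single arrays. The GC-1 minus GC-2 count was 3 with quantile normalization (20.7%), 8 within the slide (33.8%), 2 by the adjusted t-test (10.7%) and 2 to 5 without single arrays, with 2 when GC-1 replicate 2 (11.3%) or 3 (11.1%) and 3 when GC-2 replicate 3 (11.8%) was left out. Presence depended on the flag: with the flag for a positive and significant signal, which is less strict, 18 were detected in F9 (51.2% of all probes), 32 in GC-1 (54.7%), 30 in GC-2 (54.4%) and 38 in at least 1 line (61.8%), and 3 in place of 62 were above background on no other tissue array (5.45% in place of 24.9%). With 1 common log2 level, 7 were detected in GC-1 (35.3%) and 6 in GC-2 (34.5%). Without single arrays the counts were 6 to 6 in F9, 13 to 14 in GC-1, 11 to 12 in GC-2, 17 to 19 in at least 1 line and 62 to 69 for no other tissue array. The median of heart minus the nearest tissue was 3.89 with quantile normalization, 3.62 with the authors' scaling, 0.72 with normexp, 2.82 within the slide of replicate 1 and 4.09 without liver (an alternative chosen after seeing the data), and 3.05 to 3.34 without single arrays. The median heart level was 6.67 with quantile normalization, whose scale is not centred, -0.37 with the authors' scaling and -0.02 to 0.06 without single arrays. No direction turned under these alternatives. By the adjusted t-test AK037391 (0.0865) and Palld (0.0578), both F9 minus GC-2, also missed the threshold. Causes of these changes were not tested. Signals near background limit the rest: for 7 of 102 the bound over another tissue was under 1.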
